A study of Mus musculus with 14 samples.

Results

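Krt8 and Krt18 are the 2 genes described here, out of 472 rows in the deposited count tables. They encode keratin 8 and keratin 18, the keratins of simple epithelia. They were chosen by name, with their levels, their allelic shares and their clone-to-clone correlation in these samples already known, so these values are given as a description and without a test.

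RNA came from 14 embryonic stem cell clones of a female F1 hybrid mouse, with 1 genome copy of strain 129 and 1 of Castaneus (CAST). The cultures were serum-free, with LIF, the MEK inhibitor PD0325901 and the GSK3 inhibitor CHIR99021. Each clone carries a deletion of the enhancer Chen2008-1 (8 clones) or Chen2008-25 (6 clones). By their deposited genotypes, 6 Chen2008-1 clones are Het (+/-) and 2 are Het (-/+). Of the Chen2008-25 clones 5 are KO (-/-) and 1, clone E6, is Het (-/+). Which sign stands for which copy is unlabelled, and 129 was read as the first. All clones derive from the parental line F1 2-1, each library is 1 clone, and every clone has a deletion, so the set with the other deletion is the reference throughout. Enhancer and clone set therefore cannot be told apart in any difference below. The headers of the count columns also carry a number that differs between the sets, and its meaning is not given. Nothing in the labels says that the clones of a genotype are more than separate subclones of that line.

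Keratins are intermediate filament proteins that assemble as obligate pairs of a type II keratin, such as keratin 8, and a type I keratin, such as keratin 18. Keratin 8 and keratin 18 form the first keratin filaments of the mouse embryo, in the trophectoderm, and later the filaments of liver, gut and other simple epithelia. An unpaired keratin protein is degraded, so both proteins depend on each other for their stability.

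Both genes lie on chromosome 15 at the edge of the keratin cluster, Krt8 on the minus and Krt18 on the plus strand, so that they are read away from each other. In the RefSeq annotation of GRCm38.p6, 2 predicted genes start between them (Gm36026 and Gm41404), and neither was in the panel. The sequences before their annotated starts are shown because the pair lies side by side and both genes had lower RNA in the same clones. Each run holds 250 bases before the start and the first 20 bases from it, from RefSeq on GRCm38.p6, while the counts were made on mm9. Capitals mark TATAA, the core of a TATA box, and AGGTCA, the half-site of nuclear receptors.
Krt8, chr15:102004323-102004592, minus strand: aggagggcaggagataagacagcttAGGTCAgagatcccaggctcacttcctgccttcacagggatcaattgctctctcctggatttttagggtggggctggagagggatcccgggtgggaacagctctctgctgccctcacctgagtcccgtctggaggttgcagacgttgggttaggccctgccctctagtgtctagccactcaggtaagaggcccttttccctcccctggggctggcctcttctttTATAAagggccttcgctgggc
Krt18, chr15:102027966-102028235, plus strand: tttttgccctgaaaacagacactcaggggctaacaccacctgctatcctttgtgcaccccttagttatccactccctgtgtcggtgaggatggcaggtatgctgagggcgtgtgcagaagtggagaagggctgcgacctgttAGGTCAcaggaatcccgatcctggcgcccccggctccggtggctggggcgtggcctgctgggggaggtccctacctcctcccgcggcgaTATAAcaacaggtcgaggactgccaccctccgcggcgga

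The letters TATAA begin 19 bases before the annotated start of Krt18 and 1 base before that of Krt8, where they run across the start. On either strand they are found in 24.4% of 27025 promoter windows of this length. AGGTCA occurs once in each window, 225 bases before the start of Krt8 and 108 before that of Krt18, and on either strand in 14.8% of all windows. It was chosen after the sequences were read. Neither window holds GGGCGG (34.4% of all windows) or CCAAT (35.9%) on either strand. The Krt18 window has 15 CpG sites and 61.9% G and C, and the Krt8 window 4 CpG sites and 58.1%, against medians of 6 and 52.2% over all windows. These matches describe letters and show no binding.

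Depth ran from 135881 allelic reads (clone D10) to 1331965 (D3) in the Chen2008-1 clones and from 239430 to 891466 in the Chen2008-25 clones. Trim28 and B3gnt7 served to check the labels. The 129 share of Trim28, on chromosome 7, was 65.0 to 69.7% in the 6 Het (+/-) clones, 29.0 and 31.3% in the 2 Het (-/+) clones and 48.9 to 50.3% in the Chen2008-25 clones. B3gnt7, on chromosome 1, was at 424 to 491 CPM in the KO clones, 953 CPM in E6 and 1375 to 2225 CPM in the Chen2008-1 clones. Its 129 share was 26.0% in E6 and 47.7 to 69.0% in the KO clones. Trim28 in the Chen2008-1 set and B3gnt7 in the Chen2008-25 set thus had their lowest 129 shares in Het (-/+) clones. In these clones 129 was read as the deleted copy. Of the marker lists for embryonic stem cells (10 genes), feeder fibroblasts (6), trophectoderm (5) and primitive endoderm (5), 0 genes were in the panel, so the labelled cell type could not be checked by its markers.

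Krt8 RNA was high in every Chen2008-1 clone and low in every Chen2008-25 clone. Levels are given in CPM, the allelic reads of both copies relative to the library's total and its TMM factor. In the 8 Chen2008-1 clones Krt8 ran from 956 CPM (G3) through a median of 1182 to 2035 CPM (D3). In the 6 Chen2008-25 clones it ran from 174 CPM (B4) through a median of 244 to 348 CPM (G2). The sets did not overlap, and every Chen2008-25 clone lay far below the lowest Chen2008-1 clone. In 18.1% of the 448 genes tested the Chen2008-25 clones likewise all lay below the Chen2008-1 clones. The mean was 1282 CPM ± 372 (SD, n = 8) against 255 CPM ± 61.0 (SD, n = 6), and the edgeR estimate was a log2 difference of -2.36 (SE 0.19), which puts the Chen2008-25 clones at 19.5% of the Chen2008-1 level. From the lowest up, this estimate had rank 8 of 448 genes and that of Krt18 rank 16, where the median gene was at -0.01. Fewer cells with keratin RNA and less keratin RNA per cell cannot be told apart in these bulk libraries. Both genes have processed pseudogenes in the mouse genome, and how the counting treated reads shared with them is not given, so the levels are uncertain to that extent.

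Krt18 RNA was also lower in the Chen2008-25 clones, on far fewer reads. It ran from 44.1 CPM (B8) through a median of 55.4 to 93.0 CPM (D3) in the Chen2008-1 clones, on 10 to 131 reads a clone. In the Chen2008-25 clones it ran from 3.32 CPM (E6) through a median of 20.3 to 36.1 CPM (H2), on 2 to 34 reads. The sets again did not overlap, as in 18.1% of the 448 genes with the Chen2008-25 clones lower, but the gap was narrow. The mean was 60.3 CPM ± 17.7 (SD, n = 8) against 19.8 CPM ± 11.1 (SD, n = 6), with a log2 difference of -1.58 (SE 0.34) or 33.4% of the Chen2008-1 level. The clone with the most Krt8, D3, also had the most Krt18, and it was the deepest library.

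**Figure D1:**
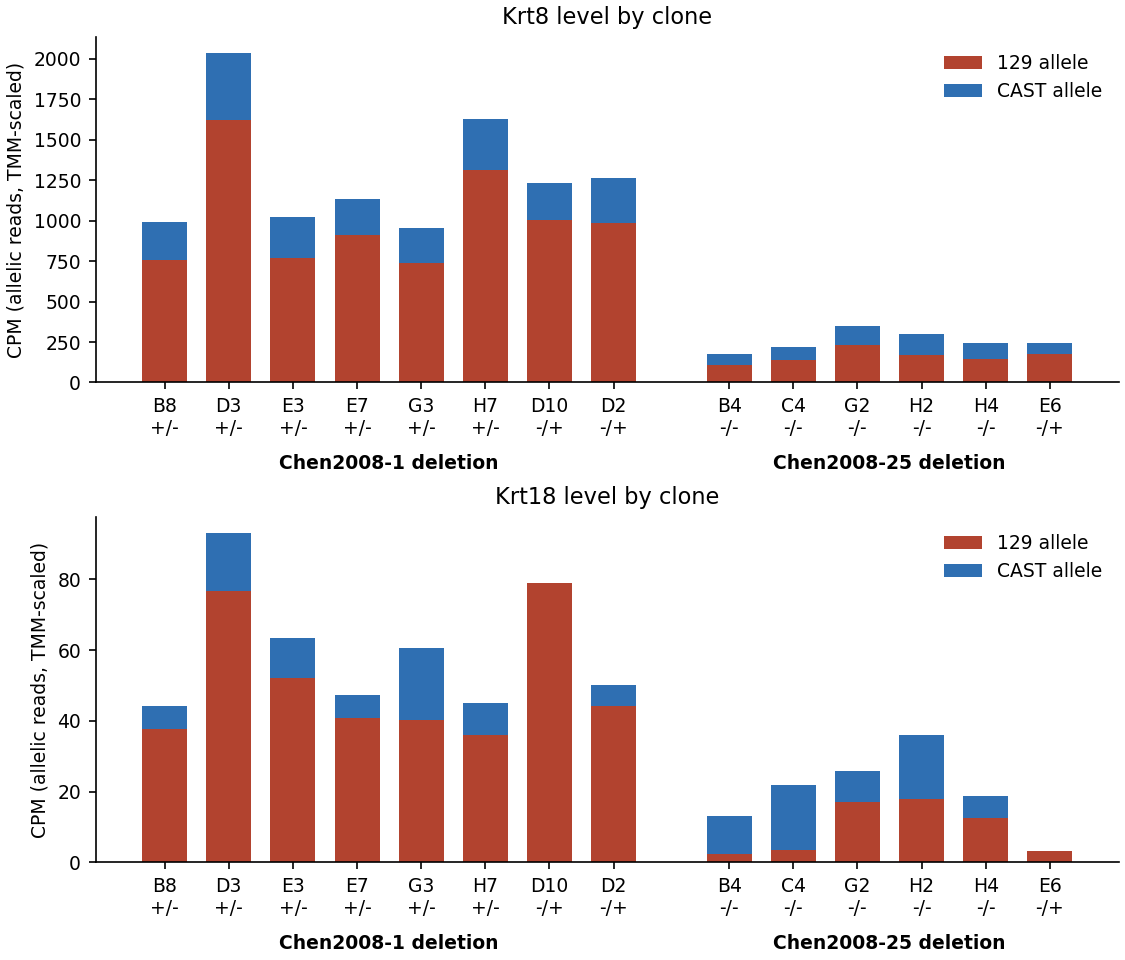
Level of Krt8 (top) and Krt18 (bottom) in each of the 14 clones in CPM, with the part from the 129 allele in red and the part from the CAST allele in blue, and the genotype under each clone name. Krt8 lies at 956 CPM or more in every Chen2008-1 clone and at 348 CPM or less in every Chen2008-25 clone, and the red part shrinks more than the blue part.

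Within a set the genotypes overlapped in Krt8. The 2 Het (-/+) clones of Chen2008-1 were at 1233 CPM (D10) and 1262 CPM (D2), inside the range of the 6 Het (+/-) clones, which spans the whole set. Their log2 difference was -0.05 (SE 0.27). Among the Chen2008-25 clones, E6 with 1 deleted copy was at 242 CPM and the 5 KO clones at 174 to 348 CPM, a difference of 0.05 (SE 0.40, KO minus E6). E6 thus lay among the KO clones.

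For Krt18, the Het (-/+) clones were at 79.0 CPM (D10) and 50.2 CPM (D2), among the Het (+/-) clones (log2 difference -0.03, SE 0.41). E6 held only 2 Krt18 reads, while the KO clones held 6 to 34. Its level was 13.8% of that of the pooled KO clones (exact 95% interval 1.64 to 52.0%, counting error of independent reads only). That interval is too narrow if both mates of a fragment were counted. E6 is a single clone, so this difference has no replicate.

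The difference in Krt8 RNA was larger on the 129 copy than on the CAST copy. From 129, Krt8 was at 738 to 1620 CPM in the Chen2008-1 clones and 109 to 232 CPM in the Chen2008-25 clones, a log2 difference of -2.69 (SE 0.20), or 15.5% of the Chen2008-1 level. From CAST it was at 218 to 415 CPM and 64.7 to 131 CPM, a log2 difference of -1.57 (SE 0.20), or 33.6%. The sets did not overlap on either copy, as in 15% of the 448 genes on the 129 copy and 13.6% on the CAST copy with the Chen2008-25 clones lower. Both copies were lower, by unequal amounts.

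In Krt18 only the 129 copy had a lower estimate. It was at 35.9 to 79.0 CPM in the Chen2008-1 clones and 2.40 to 18.03 CPM in the Chen2008-25 clones, a log2 difference of -2.48 (SE 0.41), or 17.9%. The CAST copy was at 0 to 20.2 CPM and at 0 to 18.2 CPM, a log2 difference of 0.12 (SE 0.51). The sets overlapped there, on 61 CAST reads over 8 clones and 40 over 6, and the estimate is smaller than its SE.

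The share of reads from the 129 allele shows the same shift within each library, where depth and scaling act on both copies alike. In the Chen2008-1 clones the 129 share of Krt8 ran from 75.1% (E3) through a median of 78.8 to 81.4% (D10). In the Chen2008-25 clones it ran from 56.0% (H2) through a median of 62.8 to 73.3% (E6). The sets did not overlap, and 2.11% of the 427 genes with reads in every clone had all Chen2008-25 shares below all Chen2008-1 shares. The mean was 78.6% ± 2.23 (SD, n = 8) against 63.4% ± 6.05 (SD, n = 6), and the odds of 129 over CAST differed by -1.11 on the log2 scale (SE 0.15). The 129 copy gave more Krt8 reads than CAST in 14 of 14 clones, with the smallest share in H2 (158 of 282 reads, 95% Wilson interval 50.2 to 61.7%).

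Among the Chen2008-25 clones E6 had the highest 129 share of Krt8. The KO clones lay at 56.0, 59.0, 62.8, 62.8 and 66.7%, with a mean of 61.4% ± 4.07 (SD, n = 5). E6 was at 73.3% (Wilson interval 65.6 to 79.8%), above the KO clones and below the Chen2008-1 clones. Its interval overlaps that of the nearest KO clone, G2 (55.9 to 76.0%). In the Chen2008-1 clones the genotypes overlapped, with 78.3% ± 2.28 (SD, n = 6) in Het (+/-) clones and 77.9 and 81.4% in the Het (-/+) clones.

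The 129 share of Krt18 was on average also lower in the Chen2008-25 clones, with a wide scatter. It ran from 66.7% (G3) through a median of 84.1 to 100% (D10) in the Chen2008-1 clones. In D10 the CAST copy had 0 of 10 reads, which allows a CAST share of up to 30% if each read is an independent molecule. In the Chen2008-25 clones the shares were 16.7% (C4), 18.2% (B4), 50% (H2), 66.7% (G2 and H4) and 100% (E6, 2 reads). These overlap the Chen2008-1 range, and 3 of the 6 rest on fewer than 10 reads. Pooled over reads the share was 83.3% (304 of 365) in the Chen2008-1 set and 43.7% (31 of 71) in the Chen2008-25 set. The log2 difference in odds was -2.70 (SE 0.60). With the 3 Chen2008-25 clones of at least 10 reads the mean was 28.3% ± 18.8 (SD, n = 3), a lower share than over all 6.

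The spread of shares over all clones of a set was above what counting of single reads gives. It was near the value for fragments counted by both mates. Shares of Krt8 had an SD over the Chen2008-1 clones of 2.23 percentage points, where binomial counting of reads gives 1.78, and 2.52 if a fragment was counted by both mates. In the Chen2008-25 clones the SD was 6.05 against 4.45 and 6.30. For Krt18 the SD was 9.28 against 7.23 and 10.2 in the Chen2008-1 set, and 32.0 against 20.6 and 29.2 in the Chen2008-25 set. Over the 5 KO clones alone, without E6, the Krt8 SD was 4.07 against 4.59 and 6.49. For Krt18 it was 24.9 against 16.2 and 22.9. Of 28 counts per gene 22 were even for Krt18 and 13 for Krt8, so even counts were in excess for Krt18 only.

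**Figure D2:**
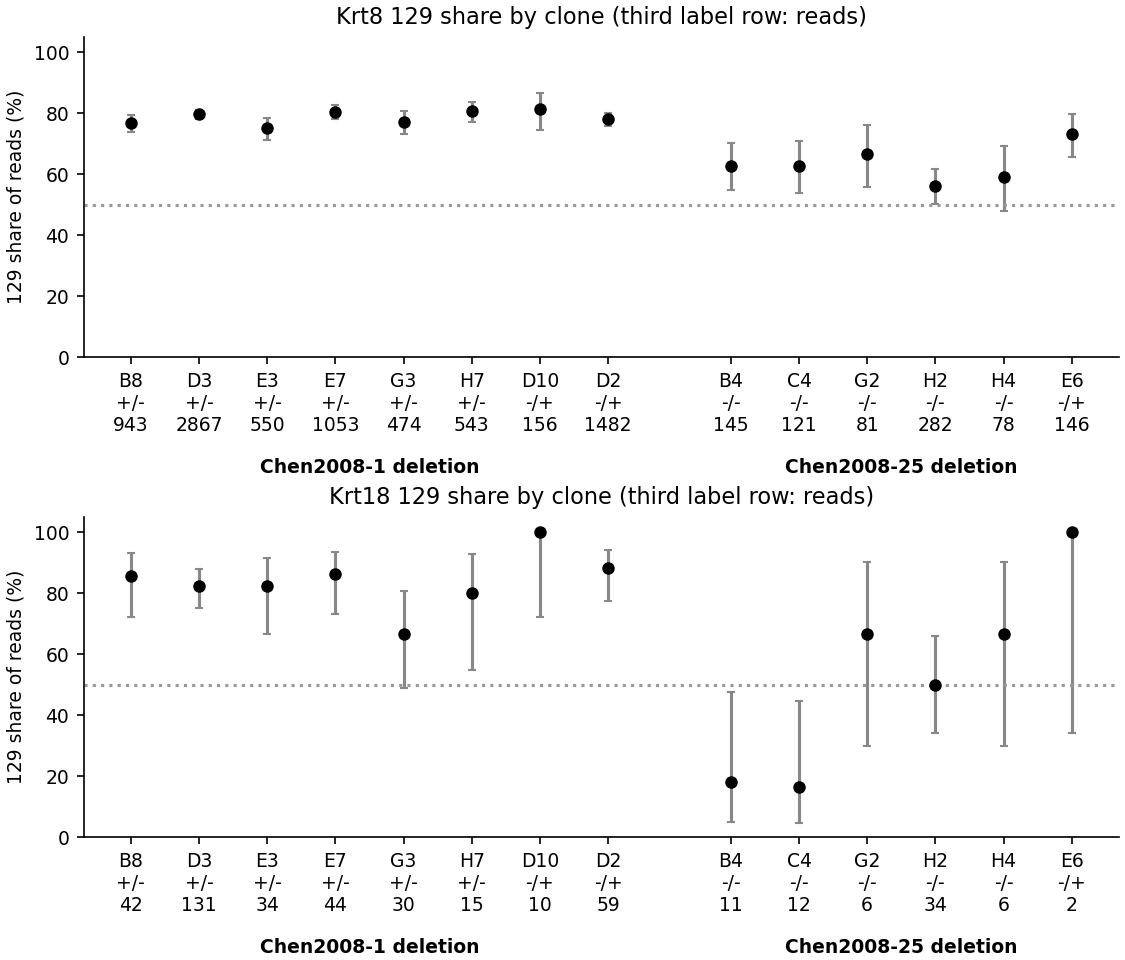
Share of reads from the 129 allele in percent for Krt8 (top) and Krt18 (bottom) by clone, with 95% Wilson intervals on reads (counting error only), the genotype and the number of reads under each clone, and a dotted line at 50%. The Krt8 shares of the Chen2008-1 clones lie between 75.1 and 81.4% and those of the Chen2008-25 clones between 56.0 and 73.3%, while the Krt18 intervals of the Chen2008-25 clones are wide.

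Other genes of chromosome 15 showed no such lean toward 129 at their median. The median 129 share of 132 other tested genes of chromosome 15 was 49.1 to 50.9% in the Chen2008-1 clones and 49.8 to 50.6% in the Chen2008-25 clones. On the other autosomes the medians of the clones were 49.9 to 51.1%. Among all 448 genes the mean share of Krt8 stood at percentile 93.3 in the Chen2008-1 set and 82.1 in the Chen2008-25 set. That of Krt18 stood at percentiles 94.2 and 59.2.

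Since keratin 8 and keratin 18 proteins assemble together, the question is also whether their RNAs move together from clone to clone. Between the sets both were lower in every Chen2008-25 clone. Within a set the correlation of their levels was weak. Over the 8 Chen2008-1 clones Pearson's r of the log2 CPM was 0.42 and Spearman's rho 0.29. Without D3 alone r was -0.21, and without D3 and H7, the clones farthest from the median, it was 0.20. Over the 6 Chen2008-25 clones r was 0.40 and rho 0.66. Without E6, the clone of 2 Krt18 reads, r was 0.82, and without B4 and G2 it was 0.40 over 4 clones. These correlations were used in choosing the pair and carry no p, and in counts this sparse a weak correlation is no finding.

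With the mean of each set removed, r between Krt8 and Krt18 over all 14 clones was 0.36 (rho 0.50). Ordered by r with Krt8, Krt18 had rank 34 of 367 genes, and Krt8 had rank 51 for Krt18. The 129 and CAST levels of Krt8 had an r of 0.71 over the 14 clones. In the Chen2008-1 set it was 0.89, or 0.31 without D3 and H7, and in the Chen2008-25 set 0.54, or -0.12 without B4 and G2, so within the sets it rests on those clones. Between single copies of Krt8 and Krt18, r over the 14 clones was 0.50 (both 129) and 0.43 (both CAST). Across copies it was 0.75 (Krt8 CAST with Krt18 129) and -0.09 (Krt8 129 with Krt18 CAST), on few Krt18 reads. The 129 shares of the pair had an r of 0.52. Between Krt8 level and depth r was 0.14 in the Chen2008-1 set and -0.50 in the Chen2008-25 set, where the shallowest clone, G2, had the most Krt8 CPM. Without the 2 clones farthest from the median these values turned to -0.20 and 0.59, so their sign rests on those clones. For Krt18 r was -0.18 and -0.13, and -0.25 and -0.79 without the farthest 2. The part of depth in the correlation of the pair was not tested. All values of a clone share its library, culture and scaling.

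**Figure D3:**
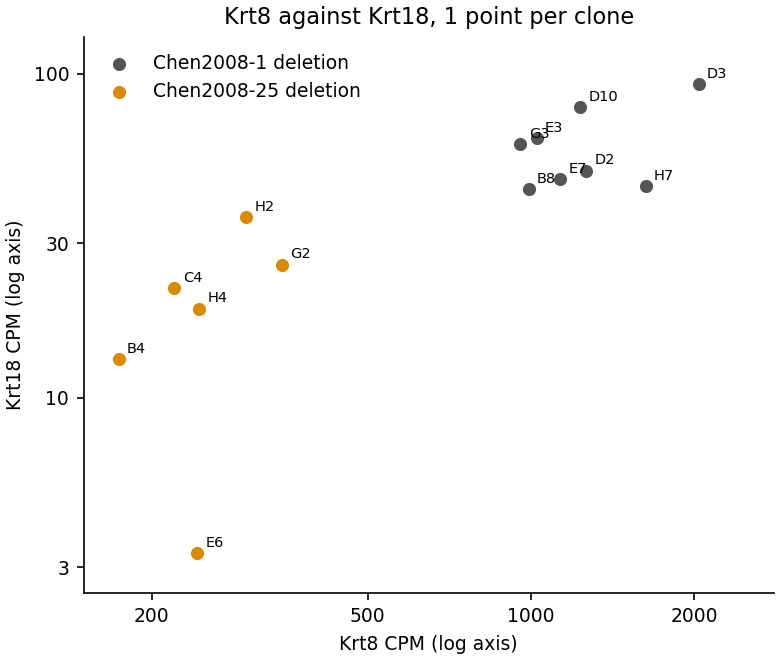
Krt8 level against Krt18 level in CPM on log axes, 1 point per clone, with Chen2008-1 clones in grey and Chen2008-25 clones in orange. The sets form separate groups, and clone E6, at 242 CPM of Krt8 and 3.32 CPM of Krt18, lies apart from the other Chen2008-25 clones.

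The number of Krt8 reads per Krt18 read was lower in the KO clones than in the Chen2008-1 clones, while E6 had the highest value, so the sets overlapped. It is no molar ratio, because allelic reads depend on the probes and on the variant sites of each gene, but it can be compared between clones. Chen2008-1 clones had 15.6 to 36.2 (median 22.2). The KO clones had 8.29 to 13.5 (mean 11.6 ± 2.31, SD, n = 5), below every Chen2008-1 clone, on 6 to 34 Krt18 reads a clone. The nearest Chen2008-1 clone, D10 (15.6), held 10 Krt18 reads. How often other pairs of genes separate these groups was not computed. In E6 it was 73.0, on 2 Krt18 reads.

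The genes whose clone-to-clone pattern was most like the mean of the pair were sought among 366 genes with at least 50 reads per clone on average, with set means removed. The closest was Ficd, which encodes an enzyme that modifies the chaperone BiP (r = 0.83 over 14 clones, rho 0.79). Lad1, which encodes ladinin 1, an epithelial anchoring protein, followed (r = 0.74, rho 0.73), then Trnau1ap, a factor of selenocysteine tRNA (r = 0.73), the noncoding RNA linc1259 (r = 0.67) and Epb4.1, which encodes the membrane skeleton protein 4.1 (r = 0.66). Ficd levels overlapped, with 439 CPM ± 41.5 (SD, n = 8) for Chen2008-1 and 436 CPM ± 66.7 (SD, n = 6) for Chen2008-25. Ficd was lowest of all 14 clones in E6 (319 CPM, KO clones 411 to 513 CPM), the clone of 2 Krt18 reads. Its r without E6 was not computed, so the part of that clone is unknown. The first of 366 genes ordered on 14 clones has a high r by selection. The largest r in size among them was negative (-0.88). Lad1 was at 1931 to 3856 CPM in the Chen2008-1 clones and 1571 to 3350 CPM in the Chen2008-25 clones, which overlap. The order rests in part on H2. Without H2 r was 0.79 for Ficd, 0.66 for Lad1, 0.69 for Trnau1ap, 0.73 for linc1259 and 0.54 for Epb4.1. Other genes of the panel then came before Trnau1ap, Lad1 and Epb4.1. The likeness was measured among clones within a set, not between the sets.

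Other keratin genes and partners of keratins were few in the panel. Of a list of 43 keratins and other intermediate filament genes 1 was there besides the pair, Krt85. It had 8 reads per clone on average, below the minimum of 10 for testing. Krt85 was not placed on a chromosome here, so it is missing from the order of neighbours below. Of 22 keratin-binding proteins and chaperones 3 were there. Of 19 genes of simple epithelium and trophectoderm and of 9 genes of endoderm and early differentiation there were 0.

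Among the 3 tested partners, Fam83h fell in the Chen2008-25 clones and the other 2 did not pass. Fam83h encodes a protein that recruits casein kinase 1 to keratin filaments. It ran from 773 through a median of 1329 to 1752 CPM in the Chen2008-1 clones. In the Chen2008-25 clones it ran from 161 through a median of 401 to 468 CPM. The sets did not overlap, as in 18.1% of the 448 genes with the Chen2008-25 clones lower. Its log2 difference was -1.89 (SE 0.22, edgeR adjusted p = 5.30e-07). Over the panel 63.8% of genes passed in this comparison, 34.4% lower and 29.5% higher, so 1 of 3 is no more than the background. Plec, which encodes plectin, the linker of intermediate filaments to junctions, was at 679 CPM ± 102 (SD, n = 8) and 743 CPM ± 113 (SD, n = 6), with a log2 difference of 0.13 (SE 0.11, adjusted p = 0.337). Eppk1, which encodes the keratin-binding protein epiplakin, was at 30.4 CPM ± 17.5 (SD, n = 8) and 27.9 CPM ± 19.4 (SD, n = 6), with a log2 difference of 0.03 (SE 0.45, adjusted p = 0.976) that changed sign in DESeq2.

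The 129 share of Fam83h was at 60.5% ± 2.79 (SD, n = 8) and 65.5% ± 6.61 (SD, n = 6), with a log2 difference in odds of 0.32 (edgeR adjusted p = 0.218) that did not pass. Eppk1 passed in the allelic ratio, where 12.1% of all genes did, 6.25% with lower odds. Its share was 29.7% ± 11.2 (SD, n = 8) in the Chen2008-1 set. In the Chen2008-25 set it was 55.9% ± 13.7 (SD, n = 5), as H4 had no Eppk1 read (log2 odds 1.66, adjusted p = 0.0213), on 20.3 reads per clone. That call was lost without D3 (adjusted p = 0.0590), without B4 (0.0882) or without H2 (0.0509).

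The nearest 10 panel genes on each side of the pair on chromosome 15 were compared, whatever their distance. On the Krt18 side no protein-coding gene of the annotation lies between Krt18 and Eif4b, the first of them. Between Eif4b and Espl1, the last on that side, lie 9. On the Krt8 side 26 protein-coding genes lie between Krt8 and 9430023L20Rik, the nearest. How many lie between 9430023L20Rik and the others of that side was not counted, so those can be much farther from Krt8. These 10 are thus neighbours only in the panel. In level 14 of the 20 passed, 10 lower and 4 higher in the Chen2008-25 clones, beside the 63.8% (34.4% lower, 29.5% higher) of all genes, with a median log2 difference of -0.28 against -0.01. The sides differed in their values. On the Krt18 side 6 of 10 passed (3 lower, 3 higher) with a median of -0.02. On the Krt8 side 8 of 10 passed (7 lower, 1 higher) with a median of -0.38. As the distances on the Krt8 side were not counted, this cannot be read as a local contrast around the pair. All 132 tested genes of chromosome 15 other than the pair, these 20 included, had a median of -0.16.

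Eif4b, a translation initiation factor gene next to Krt18, was at 24140 CPM ± 2371 (SD, n = 8) and 26523 CPM ± 2212 (SD, n = 6). Its log2 difference of 0.14 (SE 0.07, edgeR adjusted p = 0.0917) did not pass, though it did in DESeq2 (0.17, adjusted p = 0.0294) and without D10 (edgeR adjusted p = 0.0190), G3 (0.0379) or H2 (0.0228). Further on, Csad, an enzyme of taurine synthesis, rose by 0.59 (SE 0.07), the zinc-finger gene Zfp740 by 0.25 (SE 0.05) and Espl1, which encodes separase, by 0.40 (SE 0.05). The integrin gene Itgb7 fell by 0.90 (SE 0.14) and the transporter gene Mfsd5 fell by 0.49 (SE 0.05). Rarg, a retinoic acid receptor gene, was at 0.15 (SE 0.10, adjusted p = 0.174). It passed without H2 (0.25, adjusted p = 0.00327). The adjusted p of the 5 genes that moved was at most 0.000103.

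On the other side, Tspo, a mitochondrial transporter gene, fell by 0.86 (SE 0.12) and Parvb, which encodes a focal adhesion protein, fell by 0.89 (SE 0.12), with an edgeR adjusted p of at most 6.25e-06. Samm50, of the mitochondrial outer membrane, fell by 0.35 (SE 0.05, adjusted p = 1.12e-05). Parvg, related to Parvb, fell by 1.40 (SE 0.33, adjusted p = 0.00121). Mcat fell by 0.32 (SE 0.07) and Sult4a1 fell by 0.96 (SE 0.27), while Scube1 rose by 1.99 (SE 0.57) on 16.1 reads per clone, with an adjusted p of at most 0.00519.

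Some calls hung on single clones. Pnpla3 (-0.40, edgeR adjusted p = 0.0415) lost its call without D2, D3, E7, G3, B4, E6, H2 or H4 (adjusted p 0.0502 to 0.113). Spryd3 (-0.31, adjusted p = 0.0457) lost it without D10, D2, D3, E7, G3 or any 1 Chen2008-25 clone (0.0526 to 0.131). Ttll12 (0.18, adjusted p = 0.0501) passed without B8, E3, H7, E6 or G2 (0.0222 to 0.0406). The other 3 genes that did not pass were 9430023L20Rik (-0.12), Tenc1 (-0.19) and Soat2 (-0.25). No neighbour had an estimate as low as that of Krt8 or Krt18. The pair was chosen with its values known, so a place below the neighbours is no finding. The 95% interval of Parvg (-2.10 to -0.71) covered the Krt18 estimate of -1.58. The differences between the pair and its neighbours were not tested.

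In the allelic ratio 3 of the 20 neighbours passed, 1 with lower odds, beside 12.1% of all genes (6.25% with lower odds). Eif4b had shares of 52.9% ± 0.643 (SD, n = 8) and 52.6% ± 0.425 (SD, n = 6) and a log2 difference in odds of -0.02, which did not pass (edgeR adjusted p = 0.979). Espl1 had a lower 129 share in the Chen2008-25 clones, 49.1% ± 0.877 (SD, n = 6) against 51.9% ± 1.70 (SD, n = 8), a log2 difference in odds of -0.16 (adjusted p = 0.0274). That call was lost without G3 (adjusted p = 0.0512), H2 (0.0698) or H4 (0.0635). Mcat, a gene of mitochondrial fatty acid synthesis, had a higher share (45.8% against 42.5%, log2 odds 0.19, adjusted p = 0.0159), as did the sulfotransferase gene Sult4a1 (88.4% against 74.8%, log2 odds 1.37, adjusted p = 0.00817). The estimates of the 20 genes ran from -0.44 to 1.37. Those of Krt8 and Krt18, chosen with their shares known, lay below that range. The 95% interval of Scube1 (-1.95 to 1.75) covered the Krt8 estimate of -1.11.

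**Figure D4:**
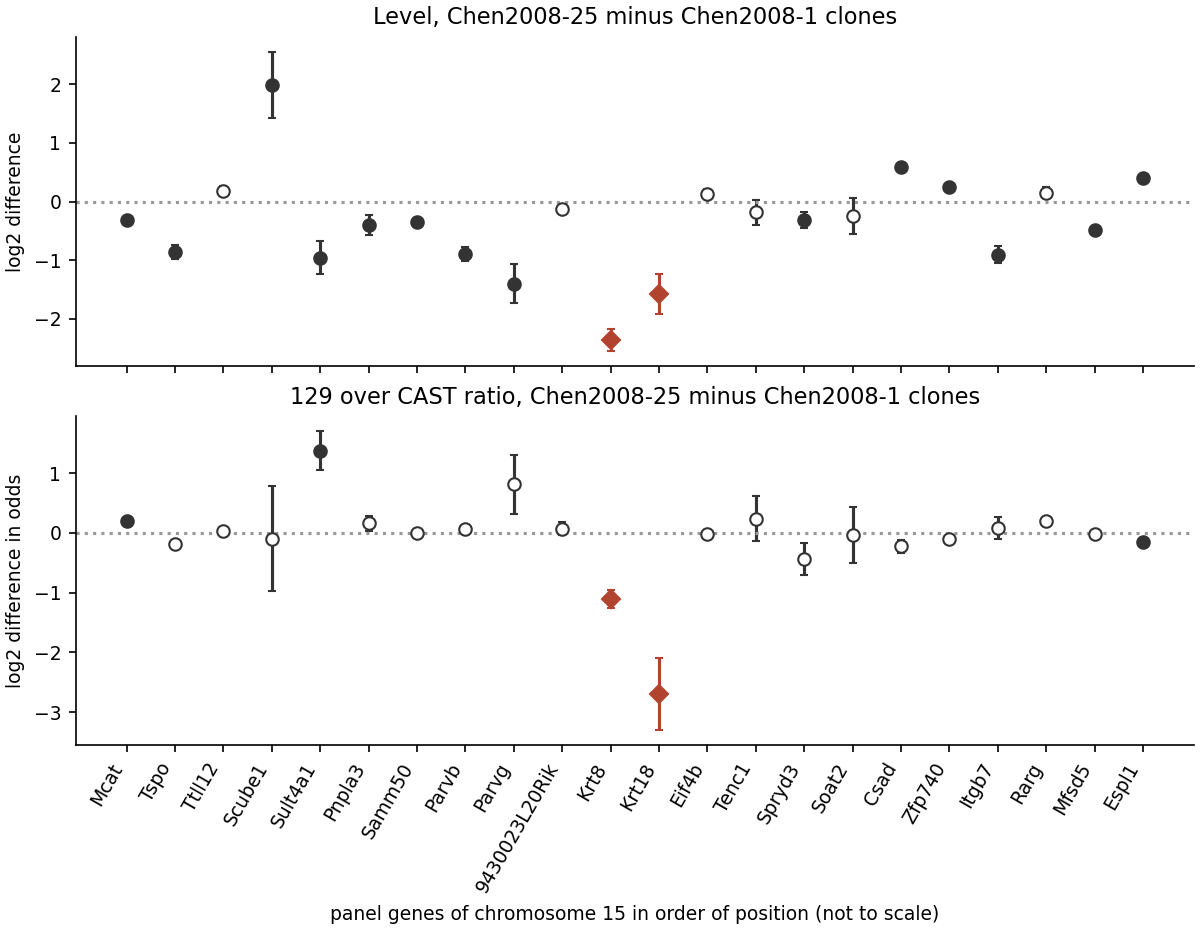
Log2 difference, Chen2008-25 minus Chen2008-1 clones, in level (top) and in the odds of 129 over CAST (bottom), with SE bars, for Krt8 and Krt18 (red diamonds, described without a test) and 10 panel genes on each side in order of position. Filled circles passed at an edgeR adjusted p of 0.05 and open circles did not. The red diamonds, of genes chosen with their values known, lie below all circles in both plots.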

How the data were processed

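Poly(A) RNA was sequenced after hybrid selection, per the labels' protocols, in which probes pull selected transcripts out of the library. The deposited count tables hold raw counts per gene, 1 column for each parental allele (129, CAST), per the file headers. Reads were placed on mm9 according to the submitters' processing notes. How alleles were assigned, which aligner and counter were used, and how strand and keratin pseudogenes were treated are not given in the sources used here. Genotypes are text of an other kind, deposited by the authors in a separate table, per the file headers. Only allele-assigned reads entered.

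A pair of rows with identical counts was kept as 1. The 448 genes averaging 10 or more allelic reads in a clone were tested in R 4.3.3 with edgeR 4.0.16, after TMM scaling of the summed alleles, by its quasi-likelihood test. The level was fitted by enhancer set, and again by enhancer and genotype. The allelic ratio was fitted on both columns in a model of clone, allele and the interaction of allele with enhancer set. P-values were adjusted by Benjamini-Hochberg across the 448 genes, with a threshold of 0.05. They set the difference between the clone sets against the spread between clones of 1 line. Correlations use log2 CPM with a prior count of 1. DESeq2 1.42.0, library size scaling, no filter and leaving out each clone were tried, and the fits were tested on simulated data. Wilson intervals (95%) and the limit of 3 counts cover counting error only, since reads of a pair are not independent molecules. Neighbours were placed by RefSeq and GENCODE order in GRCm38, matched by symbol or older symbol. In the panel 18 genes found no match and were left out of that order. The pair and all lists were chosen with earlier results of these data known. Named genes are the pair, the 10 panel genes on each side, the panel members of the lists and the 5 genes most like the pair.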

Additional observations from a re-analysis of the deposited data

Results flagged for a closer look

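Among the 6 Het (+/-) clones of Chen2008-1, the lowest 129 share of Krt18 was that of G3, 66.7% on 30 reads (95% Wilson interval 48.8 to 80.8%). The nearest was that of H7, 80.0% on 15 reads (54.8 to 93.0%), and the intervals overlap. The gap made up 0.677 of the group's range, which passes Dixon's 95% criterion. That criterion was applied to 18 groups of values of the pair as a screen and picked 1, where chance picks about 1 in 20, so the value is given as a description.

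In 4 genes compared with the pair, the ratio of 129 to CAST reads differed between the clone sets by the edgeR interaction term: Mcat (log2 0.19), Sult4a1 (1.37), Espl1 (-0.16) and Eppk1 (1.66), each Chen2008-25 minus Chen2008-1. Sult4a1 had the largest difference among the neighbours, with a 129 share of 74.8% ± 9.69 (SD, n = 8) against 88.4% ± 2.87 (SD, n = 6).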

How the results depend on the processing

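The difference in Krt8 level kept its sign under DESeq2, library size scaling, no filter and each allele alone. On CAST reads alone it was -1.57 in place of -2.36. For Krt18 it was -2.48 on 129 reads and 0.12 on CAST reads, against -1.58 on both. Leaving out each clone in turn gave -2.44 to -2.20 for Krt8 and -1.98 to -1.34 for Krt18. The difference in 129 share was -15.2 percentage points for Krt8 (-17.2 to -13.7 with a clone left out) and -30.9 for Krt18 (-40.3 to -23.7), or -55.7 over clones with at least 10 reads, an alternative chosen after seeing the data. The alternatives for the genotype contrasts were added then too.

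The correlation of the pair ran from -0.21 to 0.69 in the Chen2008-1 clones and from 0.27 to 0.82 in the Chen2008-25 clones with a clone left out. The level of Eppk1 was -0.0039 in DESeq2 and ran from -0.28 to 0.23 with a clone left out. Calls among the 20 neighbours were 12 to 15 in level and 2 to 4 in ratio with a clone left out. No paired analysis was possible because the labels give clone names and no replicate numbers that could pair clones of the sets. Depth limits Krt18, with 71 reads over the 6 Chen2008-25 clones.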
